A study of Homo sapiens with 4 samples.

Results

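Of the 5211 regions called as enriched in the trimethylation of lysine 9 of histone H3 (H3K9me3) in BJ-HELT cells, 226 lay on chromosome 13. They made up 4.34% of the list (95% Wilson interval 3.82 to 4.92%, counting error only) and 6.68% of the 3382 autosomal regions. They were chosen by their chromosome alone, from a list that was itself called on these libraries, so that their presence is a description and carries no test. BJ-HELT is an established line of human foreskin fibroblasts that express hTERT, the catalytic subunit of telomerase, and the SV40 early region, grown in DMEM with 10% serum and used at passage 10 to 11. Chromatin immunoprecipitation with a rabbit polyclonal antibody against H3K9me3 gave 2 libraries, and input DNA without antibody gave 2 more. All 4 came from the same untreated line, and the labels do not say whether the replicates were separate cultures. The values are 1 list for all libraries. Replicate errors can therefore not be given, and no difference could be tested against the spread between replicates. The number attached to each region was read as its ChIP read count, and the depth of each library is unknown.

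H3K9me3 is laid down by the SUV39H and SETDB1 methyltransferases and bound by HP1 proteins, and it marks constitutive heterochromatin such as satellite repeats beside centromeres. It also covers silenced transposons and some gene clusters within chromosome arms. Chromosome 13 is acrocentric: its centromere lies near one end, its short arm carries ribosomal RNA genes and satellites, and nearly all of its protein-coding genes lie on the long arm, which is known for large gene-poor stretches. Chromosomes 14, 15, 21 and 22 have the same form.

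Of the H3K9me3 regions of chromosome 13, 3 lay between 19 and 20 Mb, nearest the centromere. Regions were then sparse from 19571201 to 36891200. Beyond this stretch they were grouped in part of the middle of the long arm and were most frequent toward its end. By midpoint, 4 regions lay between 19 and 25 Mb (hg19), 117 between 25 and 95 Mb, and 105 from 95 Mb to the end of the last region at 114779800. This gave 0.667 regions per Mb in the first segment, 1.67 in the middle and 5.31 in the last. The last segment thus had 3.18 times the regions per Mb of the middle and 7.96 times those of the first. H3K9me3 regions covered 0.230% of the first segment (13.8 kb), 0.695% of the middle (486.8 kb) and 2.27% of the last (448.4 kb). The last segment held 46.5% of the chromosome's regions (95% Wilson interval 40.1 to 53.0%, counting error only) and the first 1.77% (0.690 to 4.46%). Together the 226 regions covered 949.0 kb and held 28335 counts.

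**Figure D1:**
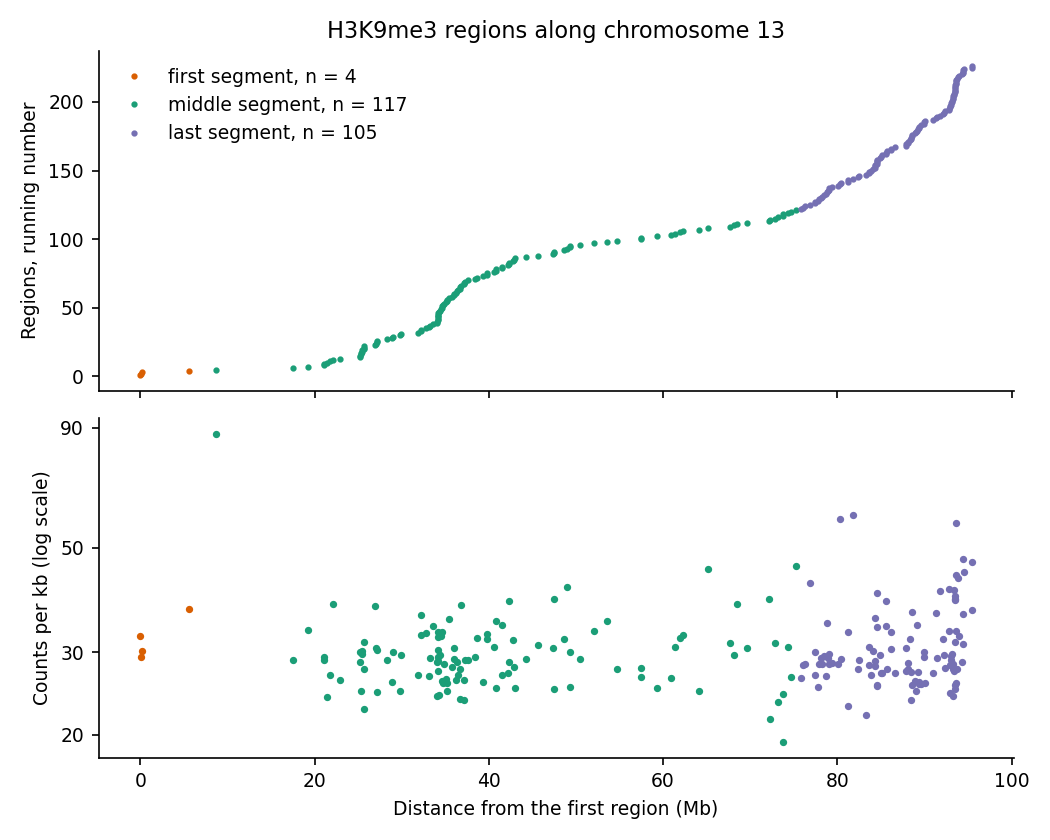
Each point is 1 of the 226 chromosome 13 regions, placed by its distance in Mb from the first region; the upper panel gives the running number of regions and the lower panel the counts per kb of each region on a log axis, with colours for the 3 segments. The running number is nearly flat between 19571201 and 36891200 and steepest near the end, while most counts per kb lie close to 30 along the whole chromosome.

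The 4 regions of the first segment measured 2.0 to 5.0 kb and held 74 to 151 counts, against chromosome medians of 3.8 kb and 109 counts. The first region of the chromosome lay at 19318601 to 19321400, measured 2.8 kb and held 91 counts. The next 2, at 19380201 to 19384200 and 19566201 to 19571200, held 117 and 151 counts over 4.0 and 5.0 kb. The fourth, at 24929601 to 24931600, held 74 counts over 2.0 kb and is the last before the 25 Mb limit. None of these reached 10 kb, and their counts per kb lay between 29.3 and 37.0. Long and dense H3K9me3 regions are commonly found at satellite blocks beside centromeres, and the list had no such region in this stretch of chromosome 13. No region was listed before 19318601, and the treatment of reads with several matches is unknown. The list therefore cannot show whether satellite repeats beside this centromere carried the mark.

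A long stretch with almost no H3K9me3 region began inside the first segment. The 3 longest gaps of the chromosome adjoined each other between 19571201 and 36891200, a stretch of 17.3 Mb with 2 regions that covered 3.2 kb. The longest gap, 8.86 Mb from 28034201 to 36891200, was followed in size by 5.36 Mb from 19571201 to 24929600 and 3.10 Mb from 24931601 to 28033000. Inside this stretch lay the region with the highest counts per kb on the chromosome. It spanned 28033001 to 28034200, the first region past the 25 Mb limit, and held 105 counts over 1.2 kb, or 87.5 counts per kb. Its count was 1.79 times the median of autosomal regions of the same length on other chromosomes. The next longest gaps, 2.73 Mb (74010801 to 76737400) and 2.56 Mb (88936801 to 91501000), lay in the distal part of the middle segment. A gap shows that no region was called at a threshold that is not known, not that the mark was absent.

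Within the middle segment the regions were unevenly spread. From 25 to 40 Mb there were 3 regions, or 0.200 per Mb. From 40 to 65 Mb, where every 5 Mb bin held at least 10 regions, there were 81, or 3.24 per Mb. From 65 to 95 Mb there were 33, or 1.10 per Mb. This division was made after the values were seen. By 5 Mb bin the number rose from 2 at 35 to 40 Mb to 14 and 10 in the following bins and 26 at 50 to 55 Mb. It then went down through 19, 12 and 8 to 3 at 70 to 75 Mb. The 4 Mb from 53 to 57 Mb, where each 1 Mb window held 5 or more, had 32 regions, 8.00 per Mb. This was above the average of the last segment as a whole. Runs chosen in the same way in the last segment had 5.50 (97 to 99 Mb), 7.00 (103 to 105 Mb), 8.00 (107 to 109 Mb) and 15.5 per Mb (112 to 114 Mb). The 32 regions from 53 to 57 Mb were alike in strength, with 68 to 187 counts per region and a median of 28.4 counts per kb.

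The last segment was fullest in 1 stretch, from 112 to 114 Mb. Its 5 Mb bins held 20, 22, 23 and 40 regions in order. Of the last 40, 31 lay between 112 and 114 Mb, where they covered 139.0 kb, or 6.95% of the sequence. The other 1 Mb windows of that bin, from 110, 111 and 114 Mb, held 3, 4 and 2 regions. The megabase from 112 to 113 Mb alone held 23 regions that covered 11.5% of it. Near the end the regions thinned out again. A gap of 866.6 kb separated the region ending at 113886800 from the 2 last regions, at 114753401 to 114755200 (84 counts) and 114777601 to 114779800 (81 counts). Of 96 windows of 1 Mb from 19 Mb on, 30 had no region midpoint, of which 25 lay between 25 and 95 Mb and 1 beyond 95 Mb. The 13 windows with 5 or more regions held 112 of the 226.

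Neighbouring regions lay closer together in the last segment than in the middle. The median gap between neighbours was 272.6 kb in the middle segment (quartiles 49.3 and 639.3 kb, 116 gaps) and 87.8 kb in the last (quartiles 36.5 and 260.0 kb, 104 gaps). The median of the middle was 3.10 times that of the last. The first segment had only 3 gaps, of 58.8, 182.0 and 5358.4 kb. Gaps of 1 Mb or more made up 23 of 116 in the middle segment and 1 of 104 in the last, that of 1.25 Mb. Gaps under 100 kb made up 34.5% in the middle segment and 52.9% in the last. At the short end the segments were alike: 12 gaps in the middle and 10 in the last were under 10 kb. The smallest gap, 0.8 kb, lay between regions at 107232801 to 107236000 and 107236801 to 107241600. Over the chromosome, 26 gaps of 1 Mb or more made up 57.3% of the distance from 19318601 to 114779800.

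**Figure D2:**
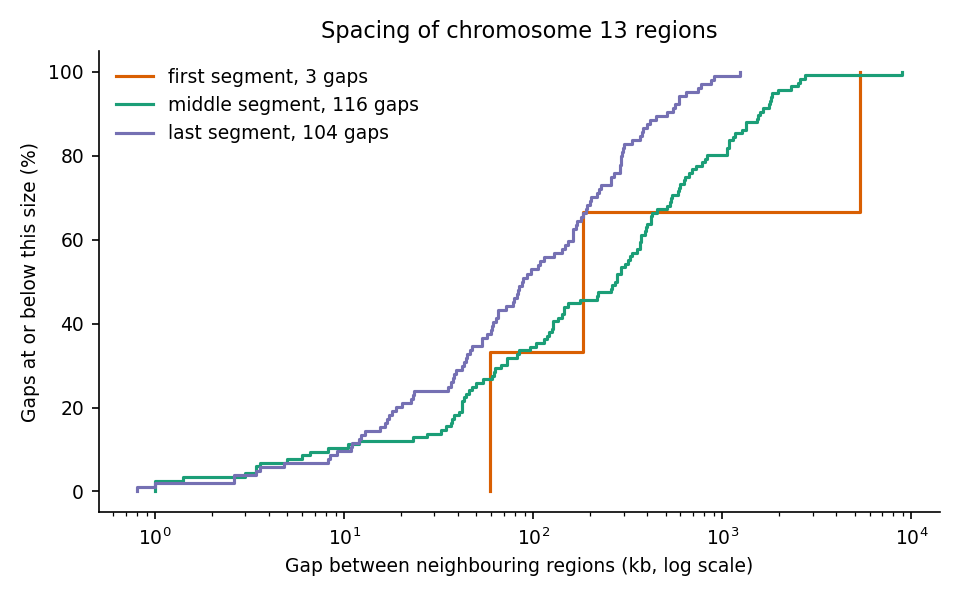
Cumulative share of gaps (%) at or below a given size in kb (log axis), with 1 line for each of the 3 segments of chromosome 13; only gaps between neighbours in the same segment are drawn. The lines of the middle and last segments run together under 10 kb and then part, and the median gap is 272.6 kb in the middle segment and 87.8 kb in the last.

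When regions under 100 kb apart were joined, 146 of the 226 (64.6%) fell into 50 clusters and 80 stood alone. This share was not particular to chromosome 13, which ranked 10 of 22 autosomes. On the others it ranged from 28.1 to 84.5%, with a median of 63.4%. In the last segment 78 of 105 regions were in clusters, against 66 of 117 in the middle. The cluster with the most regions spanned 112514401 to 113022000, with 18 regions over 507.6 kb that covered 91.2 kb (18.0%) and held 3317 counts. The next, at 53427401 to 53521800 in the middle of the long arm, packed 8 regions into 94.4 kb. They covered 32.2% of it, with a median gap of 8.2 kb, and their counts ranged from 73 to 187. A cluster of 6 regions lay at 44550201 to 44731200, with 26.6 kb covered. Another 6 lay at 112085401 to 112352800, with 29.2 kb covered. The fifth cluster named, at 107711401 to 107914400, had 5 regions, as did a sixth at 113624201 to 113886800. The median counts per kb of the first 5 lay between 27.3 and 29.9, and the sixth had 36.2.

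Median length and strength changed far less along the chromosome than the number of regions did. The median length was 3400 bp in the first segment, 3800 bp (quartiles 3000 and 5000 bp) in the middle and 4000 bp (quartiles 2800 and 5000 bp) in the last. The median count per region was 104, 108 and 109 in the same order. The median density was 31.4 counts per kb in the first segment, 29.1 (quartiles 26.4 and 32.1) in the middle and 28.9 (quartiles 27.2 and 33.3) in the last. The quartile ranges of the middle and last segments overlapped almost entirely for length and for density. The dense end differed more: 12 of 105 regions in the last segment and 4 of 117 in the middle had over 40 counts per kb. Regions of 2 kb or less numbered 10 in the last segment and 6 in the middle. The sum of counts over the sum of lengths gave 31.4, 28.9 and 30.8 counts per kb. On either side of the 95 Mb limit lay a region of 1.2 kb with 55 counts (94624201 to 94625400) and one of 5.4 kb with 143 counts (95150601 to 95156000).

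Counts followed length closely. Over the 226 regions the Spearman correlation of count with length was 0.93, against 0.89 over the 3156 regions of the other autosomes. The regions of a chromosome share libraries and a calling threshold, so this is a description. Density went down with length (Spearman rho = -0.67, against -0.29 over the other autosomes). Because density has length as its divisor, a negative value can arise from the definition alone. The 17 regions of 2 kb or less had a median of 43.1 counts per kb, the 112 of 2.2 to 4 kb 30, the 71 of 4.2 to 6 kb 27.6, and the 26 longer ones, of 6.2 to 24 kb, 26.2 (quartiles 24.9 and 28.1). On the other autosomes the last 2 of these classes had medians of 27.1 and 31.7 (quartiles of the longest class 27.5 and 41.3), so that density was higher again in the longest class there but not on chromosome 13. Counts were also compared at equal length. For 222 regions with a length found at least 10 times elsewhere on the autosomes, the median ratio to the median count of that length was 0.992 (quartiles 0.941 and 1.07). It was 0.989 in the middle segment and 0.991 in the last, and 1.03 for the 4 regions of the first. The ratio was lower for long regions. Of the 22 regions of 6.2 kb or more that had one, 20 lay below 1, with a median of 0.894 (quartiles 0.839 and 0.946). In the shorter classes the median was 1.05 up to 2 kb, 0.991 from 2.2 to 4 kb and 1.02 from 4.2 to 6 kb. In the longest class the other acrocentric chromosomes had medians of 30.8 (14), 34.7 (15), 37.4 (22) and 40.4 (21) counts per kb.

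**Figure D3:**
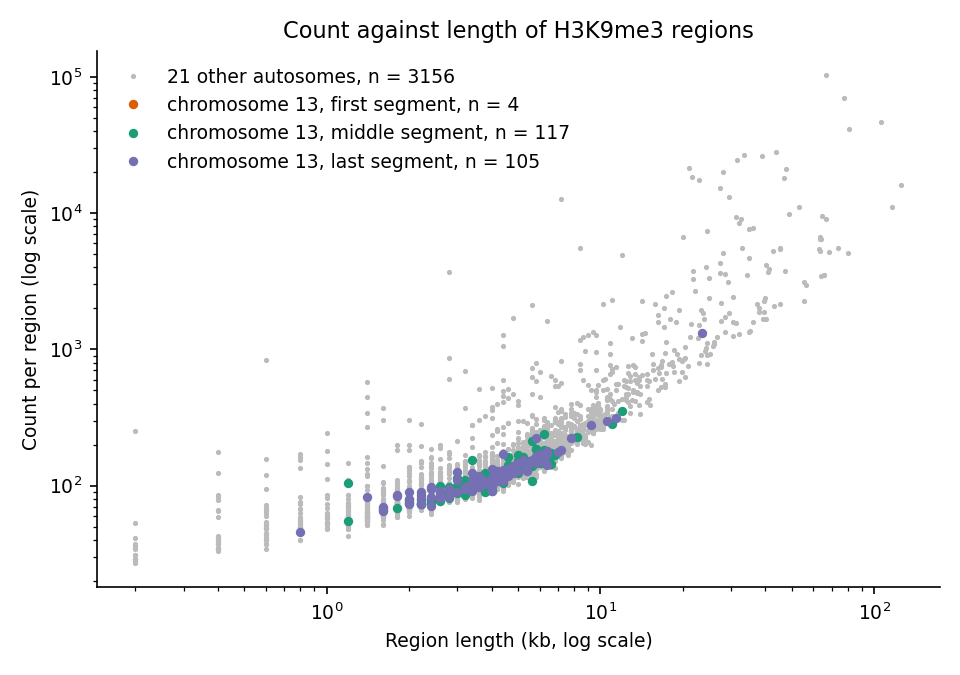
Count per region against region length in kb, both on log axes, for the 226 regions of chromosome 13 (coloured by segment) and the 3156 regions of the 21 other autosomes (grey). Most chromosome 13 regions lie in a narrow band within the lower part of the grey points; the region of 1.2 kb with 105 counts lies above the band, and that of 23.4 kb with 1320 counts lies beyond its upper end.

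A single region stood out in length and count. It lay at 112950001 to 112973400, inside the cluster with the most regions, measured 23.4 kb and held 1320 counts, or 56.4 counts per kb. Its count was 3.76 times that of the next region and 12.1 times the chromosome's median, and it held 4.66% of all counts on the chromosome. The other 30 regions between 112 and 114 Mb had 65 to 299 counts, with a median of 104. Without this region the last segment had 29.4 counts per kb summed, against 28.9 in the middle. Among regions of 20 to 27 kb on other autosomes (36), counts per kb ranged from 30.6 to 1014 with a median of 54.0, and 17 were above it and 19 below.

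The other long regions were weaker. They were also those with the next 4 counts. A region of 12.0 kb at 57721201 to 57733200 held 351 counts, and one of 11.4 kb at 107777801 to 107789200 held 311. One of 10.6 kb at 112240801 to 112251400 held 299, and one of 11.0 kb at 48189001 to 48200000 held 285. All 4 had 25.9 to 29.3 counts per kb, close to the median of the chromosome. The remaining regions among the 5 densest were short: 1.4 kb with 58.6 counts per kb (101103601 to 101105000), 0.8 kb with 57.5 (99638601 to 99639400) and 1.8 kb with 47.2 (113805401 to 113807200). Of these, the region at 99638601 was the only one on the chromosome of 1 kb or less.

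Chromosome 13 differed from the other acrocentric chromosomes in where its regions lay. In the first 6 Mb from the first region, chromosome 13 had 4 regions, chromosome 14 had 44, chromosome 15 had 22, chromosome 21 had 58 and chromosome 22 had 57. These were 1.77% of the regions of chromosome 13, and between 34.4% (chromosome 15) and 48.3% (chromosome 21) of those of the others. By summed count the stretch held 1.53% on chromosome 13, 57.0% on chromosome 15, 67.5% on chromosome 14, 74.5% on chromosome 22 and 94.9% on chromosome 21. A single region in the stretch held 9.69% of the whole count of chromosome 22, 23.3% of 15, 38.9% of 14 and 40.3% of 21. The longest region there measured 5.0 kb on chromosome 13, against 21.8 kb on 15, 49.0 kb on 14, 55.6 kb on 22 and 105.8 kb on 21. Because each chromosome has a single value from a single list, these differences have no test. The first region began at 9418801 on chromosome 21 and at 16053001 or beyond on the others, so the stretch does not lie at the same distance from the centromere on each.

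In the last 20 Mb chromosome 13 came first among the acrocentric chromosomes only. It had 105 regions there (5.25 per Mb), chromosome 22 had 68 (3.40), chromosome 21 had 47 (2.35), chromosome 14 had 36 (1.80) and chromosome 15 had 23 (1.15). Of the 22 autosomes it ranked 5 in this number, after chromosomes 20 (218), 16 (128), 19 (123) and 8 (118). The share of its regions that lay there (46.5%) also ranked 5 of 22, and that of chromosome 22 was higher (49.6%). The regions covered 2.24% of that stretch on chromosome 13 and 0.513 to 1.16% on the other acrocentric chromosomes. Median lengths there were 4000 bp on chromosome 13 and 2600 to 3900 bp on the others. Median densities were 28.9 counts per kb on chromosome 13, 29.6 on 22, 30.5 on 14, 32.3 on 21 and 35.9 on 15. Between these 2 stretches, chromosome 13 had 1.68 regions per Mb, chromosomes 21 and 22 had 1.20 and 1.37, and chromosomes 14 and 15 had 0.434 and 0.337. Per Mb of the whole span, however, chromosomes 22 (3.94) and 21 (3.12) were above chromosome 13 (2.37), which was above 14 (1.21) and 15 (0.776). Without the first 6 Mb, chromosome 13 had 2.48 and chromosome 21 had 1.91, so that their order turned, while chromosome 22 stayed higher with 2.78.

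**Figure D4:**
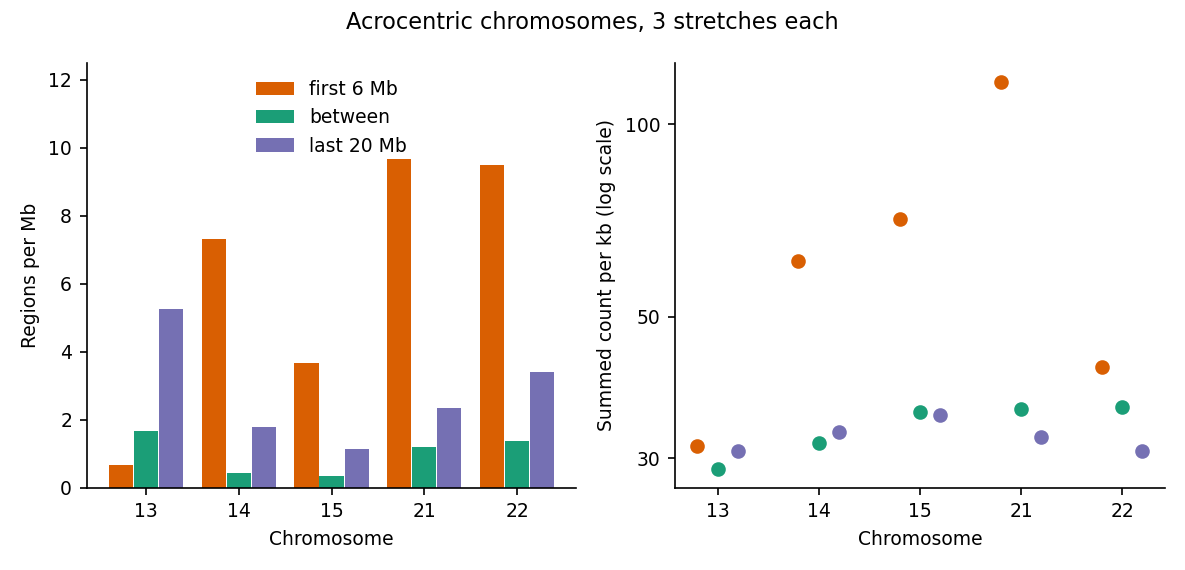
Regions per Mb (left, bars from 0) and summed count over summed length in counts per kb (right, log axis) for the 5 acrocentric chromosomes, each in the first 6 Mb from its first region, the last 20 Mb and the sequence between. On chromosome 13 the bar of the first 6 Mb is the lowest of its 3, at 0.667, whereas on the others it is the highest, and the 3 summed densities of chromosome 13 lie between 28.9 and 31.4.

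Strong regions were rare on chromosome 13. More than 50 counts per kb were found in 4 of 226 regions (1.77%, 95% Wilson interval 0.690 to 4.46%), against 13.3% of regions on the 21 other autosomes (12.2 to 14.6%). The share was 5.61% on chromosome 14, 21.9% on 15, 21.7% on 21 and 10.9% on 22. Density varied with length, and regions of 2 kb or less made up 7.52% on chromosome 13 and 13.6% on the other autosomes. How far length accounts for the difference was not tested. Regions of 10 kb or more made up 2.21% (0.949 to 5.07%), against 8.21% on the other autosomes (7.30 to 9.22%). Regions of 1 kb or less made up 0.442% (0.0782 to 2.46%), against 3.87% (3.25 to 4.60%). Neighbouring regions are not independent, so these intervals are narrower than the true uncertainty. The highest count on the chromosome, 1320, was the lowest such maximum of the 22 autosomes, the next being 1603 on chromosome 3. The summed density of 29.9 counts per kb was also the lowest of the 22, with a range of 33.8 to 198.9 on the others. Single regions weigh on this sum. The region with the highest count held 4.66% of all counts on chromosome 13, and 4.05% (chromosome 3) to 55.5% (chromosome 18) on the others. At equal length the median ratio of 0.992 was seventh from the lowest, with a range of 0.959 to 1.33 on the others. The median density of 29.1 was less apart: 3 autosomes had a lower one, and the others ranged from 28.3 to 48.1. Chromosome 13 ranked sixth of 22 in number of regions, in regions per Mb and in share of the span covered (0.994%). Its regions made up 3.81% of the covered length of the list and 1.27% of its count.

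No sequence or gene is given for these regions, because no genome or annotation of hg19 was used here.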

How the data were processed

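H3K9me3 ChIP and input libraries of BJ-HELT cells (2 each) were made with SOLiD chemistry, per the labels' protocols. The submitters' processing notes name Bowtie, a read aligner, SICER, which calls broad regions, and the builds hg19 and GRCh37. Versions, filters, pooling, the threshold and the treatment of reads with several matches were not given in the sources used here. As deposited, the list has no header and gives a whole-number count per region, read here as ChIP reads as deposited by the authors, unscaled for length, depth or input. All starts and ends fell on a grid of 200 bp, and no regions overlapped.

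Positions are printed from 1. Density is the count per kb of length, and a gap runs from the end of a region to the start of the next. Segments follow region midpoints. The end of the last region stood in for the end of the chromosome. Regions under 100 kb apart were joined into clusters. Named were the first and last regions, the 5 longest, the 5 with the highest counts and counts per kb, the 5 longest gaps and the shortest, the 5 clusters with the most regions (the sixth cluster tied with the fifth and was added after the values were seen) and those beside each segment limit. Other regions of the stretch next to the centromere and of the chromosome's end were also named after their values were seen. The members and lists were chosen with earlier results of these data known. No test was run, since no value per library exists. The measures were checked on a simulated list. The tools were pandas 2.3.3, numpy 2.4.6 and scipy 1.17.1 under Python 3.11.15, with matplotlib 3.10.9 for figures.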

Additional observations from a re-analysis of the deposited data

How the results depend on the processing

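No paired analysis was possible because replicates are not separated in the list, which also means that none could be left out in turn. Of 98 alternatives, 80 stayed within 1.5 times of the value reported. With no replicate error, this factor stood in for the spread. In every alternative tried the last segment had more regions per Mb than the middle (2.77 to 3.67 times) and a smaller gap (0.279 to 0.378 times), whereas median length (1.00 to 1.05 times) and density (0.973 to 1.07 times) were nearly equal. Keeping only regions with at least the list's median count removes regions by construction. It left 0.333, 0.743 and 2.73 regions per Mb in the first, middle and last segments. Median gaps were then 854.4 kb in the middle and 238.0 kb in the last segment. Regions per Mb under that choice were 1.10 on chromosome 13, 0.714 on 14, 0.352 on 15, 1.53 on 21 and 2.13 on 22. The mean gap in place of the median was 1866.4, 569.9 and 184.4 kb in the 3 segments. Moving the limit of 25 Mb to 30 Mb put the median gap of the first segment at 1641.7 kb, over 5 regions. Joining at 500 kb and at 20 kb gave 33 and 22 clusters. Leaving out the first 6 Mb changed chromosome 14 to 0.767 and chromosome 21 to 1.91 regions per Mb. The unknown depth and threshold limit what an empty stretch can show.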

Other observations

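Regions of chromosome 13 that stood alone were close in length and density to those in clusters. The 146 regions in clusters had a median length of 3800 bp (quartiles 3000 and 5000 bp), and the 80 that stood alone, at least 100 kb from any neighbour, had the same median and quartiles. Median counts were 107.5 in clusters and 110.5 alone, and median densities were 29.2 (quartiles 26.9 and 32.6) and 28.9 counts per kb (quartiles 26.9 and 32.1). The weakest region by density lay at 93131801 to 93137400. It measured 5.6 kb and held 108 counts. Its 19.3 counts per kb were the lowest density of the whole list.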
